A study of Homo sapiens with 4 samples.

Results

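Interferon-stimulated genes are the genes that a cell transcribes in answer to interferon. An extended list of 49 of them was followed here in 2 human lung adenocarcinoma (LAD) cell lines with and without an activated AKT1 kinase. The 49 genes were chosen by name by a rule that uses no measured value, although earlier results of these data were known when the list was drawn up. All 49 symbols were found among the 60558 gene identifiers of each library. By role, 38 of them encode effectors, 4 RNA sensors, 4 transcription factors, 2 chemokines and 1 a feedback regulator.

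A549 and HCC827 are established LAD cell lines, and each had been transduced with an empty vector or with myr-AKT1, a form of AKT1 with an added myristoylation signal that ties the kinase to the plasma membrane and so keeps it active. The labels and the study's methods name no interferon treatment of these cells. RNA-seq was done on 1 library for each of the 4 combinations, named A549-vector and A549-myr-AKT1 in the first line, HCC827-vector and HCC827-myr-AKT1 in the second, so a difference within a line has no replicate check. The study set out to find transcripts that change under active AKT, and the comparison of interest is myr-AKT1 against vector in each line.

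Type I interferons act through the receptor pair IFNAR1 and IFNAR2 and the kinases JAK1 and TYK2, which activate STAT2. Together with IRF9, STAT2 acts in the complex ISGF3, which binds the interferon-stimulated response element (ISRE) in the promoters of target genes, whereas interferon gamma acts through the GAS element. Some of the target genes keep a basal level without added interferon, and others are nearly silent until induced.

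The ISRE was searched as its core, the letters GAAA, any 2 bases and GAAA again, on both strands, in the RefSeq promoter windows of build GRCh38.p14, which run from 250 bases before to 50 bases after each annotated start. At least 1 window was found for 40 of the 49 genes. IFIT2, DHX58, MX2, OAS2, OASL, USP18, IFITM2, IRF7 and GBP2 were not matched. The core stood in a window of 27 of the 40 genes (67.5%), against 1195 of all 27305 genes with a window (4.38%). The GAS letters TTCNNNGAA, where N is any base, were found for 14 of the 40 (35%), against 9.38% of all genes, and in 6 windows of the listed genes a GAS match overlapped an ISRE match. A match describes the letters only and is not evidence of a bound factor.

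The promoters of 6 genes that will recur are printed 5′ to 3′ on the strand of the gene, with ISRE cores in capitals. IFI6 (chr1:27672143-27672442, minus strand) and IFITM1 (chr11:313790-314089, plus strand) stand for genes that were higher in both lines, BST2 (chr19:17405581-17405880, minus strand) and ISG15 (chr1:1013247-1013546, plus strand) for genes with a far larger difference in A549, GBP3 (chr1:89022817-89023116, minus strand) for genes that differed in opposite directions in the lines, and EIF2AK2 (chr2:37156931-37157230, minus strand) for genes with small differences.
IFI6: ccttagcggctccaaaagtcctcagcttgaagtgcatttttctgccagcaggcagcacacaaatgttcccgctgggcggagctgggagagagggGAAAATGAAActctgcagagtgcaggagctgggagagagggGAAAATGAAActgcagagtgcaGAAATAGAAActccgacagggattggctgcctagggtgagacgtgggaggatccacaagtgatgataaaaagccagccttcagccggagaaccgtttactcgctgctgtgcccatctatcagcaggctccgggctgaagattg
IFITM1: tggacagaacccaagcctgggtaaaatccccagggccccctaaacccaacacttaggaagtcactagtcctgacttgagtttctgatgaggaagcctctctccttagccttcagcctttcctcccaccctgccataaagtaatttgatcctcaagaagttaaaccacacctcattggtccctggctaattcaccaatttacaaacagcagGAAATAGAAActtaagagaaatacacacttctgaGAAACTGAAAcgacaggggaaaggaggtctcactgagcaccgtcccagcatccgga
BST2: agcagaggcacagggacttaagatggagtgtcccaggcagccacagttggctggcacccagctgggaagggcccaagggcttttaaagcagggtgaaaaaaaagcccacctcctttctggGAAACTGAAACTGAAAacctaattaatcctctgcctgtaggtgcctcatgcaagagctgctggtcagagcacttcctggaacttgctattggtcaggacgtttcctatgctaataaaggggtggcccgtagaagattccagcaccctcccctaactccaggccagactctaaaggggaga
ISG15: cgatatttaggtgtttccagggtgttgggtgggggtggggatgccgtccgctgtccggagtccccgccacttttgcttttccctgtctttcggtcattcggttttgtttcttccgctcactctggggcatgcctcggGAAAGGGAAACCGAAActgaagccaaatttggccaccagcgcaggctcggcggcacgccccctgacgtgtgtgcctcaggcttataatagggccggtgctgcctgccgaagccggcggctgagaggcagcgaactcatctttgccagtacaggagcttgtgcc
GBP3: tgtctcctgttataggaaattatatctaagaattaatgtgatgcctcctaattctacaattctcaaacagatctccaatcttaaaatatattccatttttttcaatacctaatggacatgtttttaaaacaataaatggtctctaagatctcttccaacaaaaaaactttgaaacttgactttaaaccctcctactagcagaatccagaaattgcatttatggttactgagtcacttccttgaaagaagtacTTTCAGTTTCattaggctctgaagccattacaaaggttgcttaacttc
EIF2AK2: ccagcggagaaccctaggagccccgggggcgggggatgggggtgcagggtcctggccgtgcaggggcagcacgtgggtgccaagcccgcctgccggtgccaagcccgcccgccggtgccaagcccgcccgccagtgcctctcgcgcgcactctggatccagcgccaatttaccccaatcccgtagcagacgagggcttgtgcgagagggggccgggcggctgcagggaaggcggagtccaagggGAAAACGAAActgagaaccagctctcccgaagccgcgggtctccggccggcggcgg
IFI6 held 3 cores, which began 156, 115 and 93 bases before the start. IFITM1 held cores 40 and 6 bases before its start. BST2 held overlapping cores 130 and 124 bases before the start, and ISG15 held overlapping cores 113 and 107 bases before. The core of EIF2AK2 began 6 bases before the start, and that of GBP3 lay on the opposite strand from base 3 after the start.

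The deposited value of a gene is its read count divided by a size factor of the library, called the normalized count below. Recovered reads per library ranged from 16322183 to 33530317, and the listed genes took up 0.0990% of them in A549-vector, 0.180% in A549-myr-AKT1, 0.267% in HCC827-vector and 0.396% in HCC827-myr-AKT1. Log2 fold changes are myr-AKT1 over vector, and their 95% Clopper-Pearson intervals cover counting error only. AKT1 itself, whose reads include any from the transgene that match the coding sequence, read 4243 and 6297 normalized counts in the A549 vector and myr-AKT1 libraries and 2175 and 4805 in the HCC827 libraries (log2 fold changes 0.57 and 1.14). Where a pair of levels is given for a line, the vector library comes first. The libraries are bulk RNA, so a change in the share of responding cells and a change in RNA per cell cannot be told apart.

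In A549 the antiviral genes were higher in myr-AKT1 than in vector cells almost across the list. Of 47 genes with reads in both libraries, 24 had a log2 fold change above 2 (51.1%, against 6.89% of all 24302 genes) and 0 one below -2 (3.62% of all genes). The median was 2.0, with 0.63 and 3.44 as quartiles, against 0 over all genes. Counting intervals lay above 0 for 39 of the 47 (27.2% of all genes) and below 0 for 3 (29% of all genes), namely OAS1, OAS3 and ISG20. XAF1 and CXCL11 had 0 reads in A549-vector and are counted apart.

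In HCC827 the same comparison gave smaller differences. Of 48 genes with reads in both libraries, 9 were past 2 (18.8%, against 6.13% of all 22736 genes) and 0 past -2 (3.87% of all genes). The median was 0.82, with quartiles of 0.24 and 1.72, again against 0 over all genes. The counting interval lay above 0 for 38 (27.1% of all genes) and below 0 for 4, which were GBP3, RIGI, SAMD9 and SAMD9L (29.2% of all genes). CXCL10 had 0 reads in HCC827-vector.

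**Figure D1:**
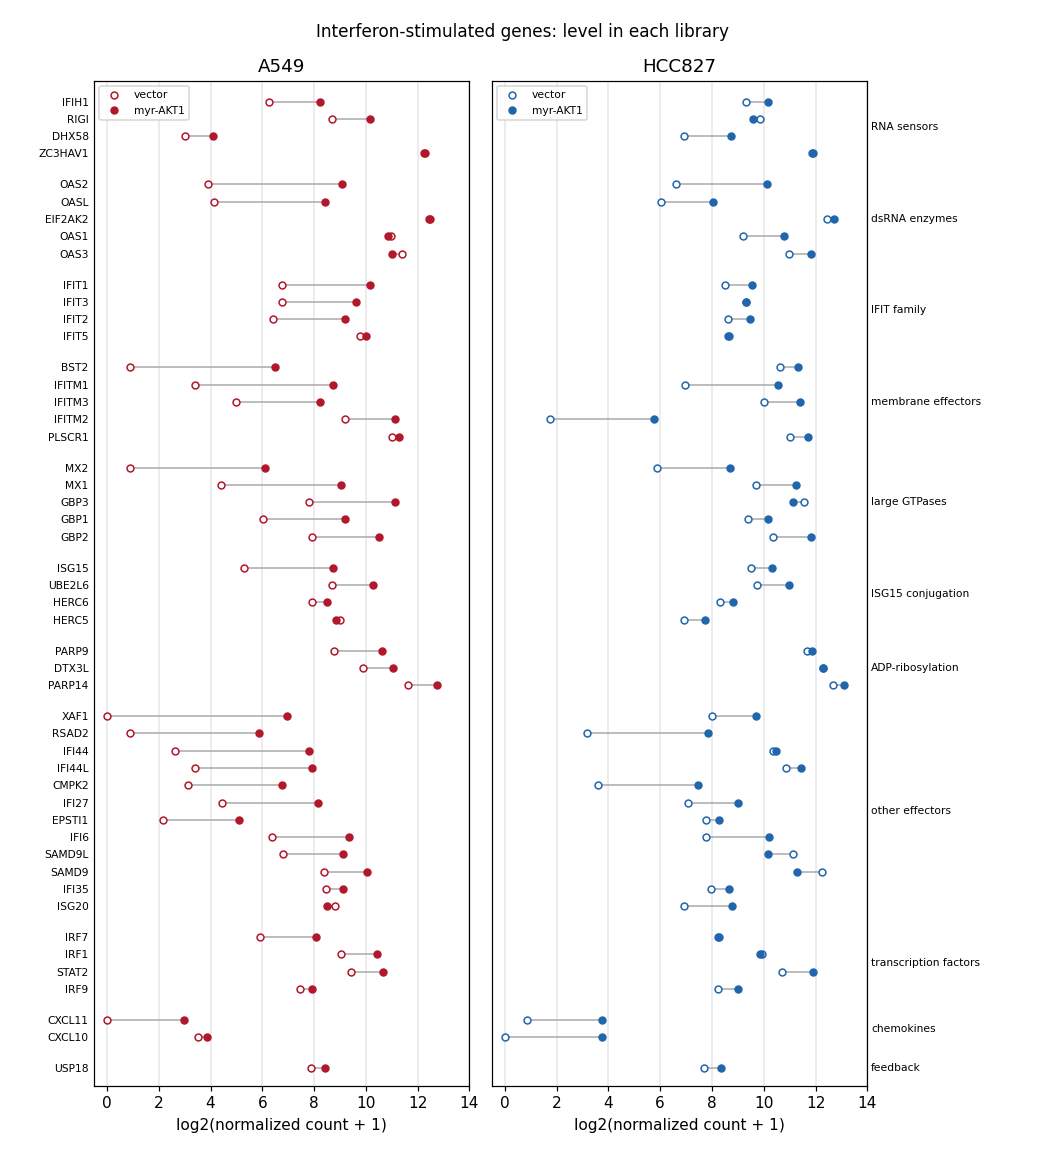
Level of the 49 genes in each library, as log2(normalized count + 1), with A549 on the left and HCC827 on the right. Open circles are vector and filled circles myr-AKT1, 1 library each, joined by a line. Long lines to the right start at low open circles, such as MX2, BST2 and XAF1 in A549, whereas the circles of ZC3HAV1 overlap in both lines (log2 fold changes 0.02 in A549 and 0.05 in HCC827).

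Over 46 genes with reads in all 4 libraries, 7 were past 2 in both lines (1.18% of all genes), namely IFI6, MX2, OAS2, OASL, RSAD2, IFITM1 and CMPK2. A further 17 were past 2 in A549 and not in HCC827 (3.86% of all genes). The reverse held for 1, IFITM2 (4.16% of all genes), whose A549 value was 1.94. At the lower threshold of 1, 16 of the 46 were past it in both lines (5.72% of all genes). Counting intervals lay above 0 in both lines for 30 of the 46 (14.4% of all genes). The log2 fold change was larger in A549 for 33 of the 46 (46.9% of all genes).

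The difference shared by the lines was tested with limma on log2(normalized count + 1) over all 4 libraries, with the cell line as a block and Benjamini-Hochberg adjustment over 19314 genes. Of 48 listed genes tested, 14 rose (29.2%, against 1.29% of all genes) and 0 fell (1.73% of all genes), with 28 higher and 0 lower at an unadjusted p under 0.05 (18.4% of all genes in either direction). The fitted value was above 0 for all 48, against 48.4% of all genes, and its median was 1.44, against -0.03 over all genes. Some genes with large A549 differences were not called, among them XAF1, BST2, IFI44, IFI44L, GBP1 and GBP3. Their limma adjusted p ran from 0.0856 for XAF1 to 0.341 for GBP3. The lines are the only replication, which leaves 1 residual degree of freedom. The p-values rest on how far the change differs between the 2 lines, with each variance drawn toward that of other genes of similar level. For genes with almost the same change in both lines, the SE thus comes largely from other genes. The number called moved between 0 and 27 with the settings of the fit, as given in the closing section, while none fell under any of them.

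**Figure D2:**
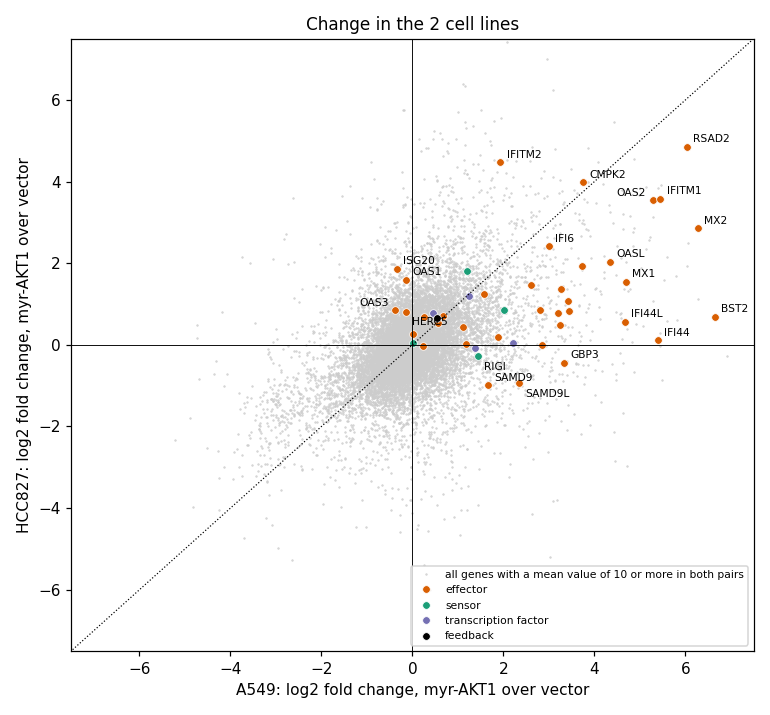
Log2 fold change (myr-AKT1 over vector) in A549 on the x axis and in HCC827 on the y axis for the 46 listed genes with reads in all 4 libraries, coloured by role, over all genes with a mean value of 10 or more in both pairs (grey). Of the 46, 33 lie below the dotted line of equal change, and GBP3, SAMD9, SAMD9L and RIGI lie below 0 on the y axis while above 0 on the x axis.

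Among the 4 sensors, which detect viral RNA in the cytoplasm, none passed the limma test after adjustment. At an unadjusted p under 0.05, 2 of them were higher (18.4% of all genes in either direction). IFIH1, which encodes the double-stranded RNA sensor MDA5, had 75.1 and 301 normalized counts in A549 vector and myr-AKT1 cells and 634 and 1140.0 in HCC827, for log2 fold changes of 2.0 and 0.85. RIGI, the sensor of RNA ends that carry triphosphates, was higher in A549-myr-AKT1 (416 and 1131; log2 fold change 1.44) and slightly lower in HCC827-myr-AKT1 (920.3 and 763; -0.27). DHX58, which encodes LGP2, a regulator of the other sensors, was low in A549 with 8 and 14 reads (6.99 and 16.0 normalized counts), so its interval there held 0 (-0.15 to 2.66). In HCC827 its level was 119 and 420.3 (log2 fold change 1.82). ZC3HAV1, the zinc-finger antiviral protein that binds CpG-rich RNA, was abundant and nearly equal throughout, with 4874 and 4929 in A549 and 3725 and 3845 in HCC827.

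The transcription factors showed differences of moderate size. STAT2 rose by almost the same amount in A549 and HCC827, with 692 and 1633 normalized counts in A549 and 1686 and 3862 in HCC827, and log2 fold changes of 1.24 and 1.2. Its fitted value was 1.22 ± 0.25 (SE; limma, adjusted p = 0.0468). IRF9, the DNA-binding partner of STAT2 in ISGF3, had 176 and 240.5 in A549 and 296 and 506 in HCC827 (log2 fold changes 0.45 and 0.77). IRF7, which amplifies interferon transcription, was 4.64 times as high in A549-myr-AKT1 as in A549-vector (58.5 and 271 normalized counts). Its HCC827 levels were 296 and 305, with an interval that held 0 (-0.20 to 0.28). IRF1, a factor induced mainly by interferon gamma, followed the same pattern, with 527 and 1371 in A549 (log2 fold change 1.38) and 979.9 and 927 in HCC827 (-0.08).

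Among the enzymes that respond to double-stranded RNA, members of a single gene cluster behaved differently. OAS1, OAS3 and OAS2 lie side by side on chromosome 12 (GRCh38), in that order, and encode synthetases of the oligoadenylates that activate RNase L. OAS2 (chr12:112978395-113011723) read 13.97 and 544 normalized counts in A549 and 97.0 and 1129 in HCC827. It was 38.9 times as high with myr-AKT1 in A549 and 11.6 times in HCC827, and it rose in the limma fit (4.36 ± 0.52 SE, adjusted p = 0.00959). OAS1, by contrast, stood at 2024 and 1836 in A549, where vector was slightly the higher (log2 fold change -0.14), and at 579 and 1755 in HCC827 (1.60). OAS3 also differed in sign, with 2684 and 2051 in A549 (-0.39) and 1984 and 3579 in HCC827 (0.85). OASL, a relative without synthetase activity that enhances RIG-I signalling, lies elsewhere on the chromosome and rose, with 16.6 and 339 in A549, 64.4 and 264 in HCC827 and a fitted value of 3.15 ± 0.64 (SE; limma, adjusted p = 0.0455). EIF2AK2, which encodes the translation-blocking kinase PKR, had 5605 and 5695 in A549 and 5632 and 6736 in HCC827. Its log2 fold changes were 0.02 in A549, with an interval that held 0 (-0.03 to 0.08), and 0.26 in HCC827, with an interval above 0 (0.21 to 0.31). Its promoter, printed above, holds an ISRE core.

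The IFIT genes, whose products bind the ends of foreign RNA, form a cluster on chromosome 10. IFIT1 read 107 and 1139 normalized counts in A549 and 359 and 755 in HCC827 (log2 fold changes 3.42 and 1.07). IFIT2 read 83.8 and 589.7 and 387 and 706 (2.81 and 0.87). IFIT3 showed 107 and 778 in A549 and 629 and 630.4 in HCC827, so its log2 fold change was 2.86 in A549 and 0.00 in HCC827, with an interval of -0.16 to 0.17 in the latter. IFIT5, the last gene of the cluster, differed least, with 872 and 1019 in A549 and 401 and 390.1 in HCC827. IFIT1, IFIT2 and IFIT3 were thus past 2 in A549 and not in HCC827. No IFIT gene passed the limma test (adjusted p of 0.0722 for IFIT1 to 0.91 for IFIT5). By the same test 3 were higher at an unadjusted p under 0.05 (18.4% of all genes in either direction).

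Large GTPases were all past 2 in A549. MX1, which traps the nucleocapsids of influenza and other viruses, read 20.1 and 519 normalized counts in A549 and 836 and 2439.8 in HCC827, which is 25.8 and 2.92 times as high with myr-AKT1. It lay at the edge of the call (limma, 3.08 ± 0.64 SE, adjusted p = 0.0499). MX2, its neighbour on chromosome 21 and a restriction factor of HIV, was nearly silent in A549-vector, where it had 1 read (0.873 normalized counts) against 59 (67.6) in A549-myr-AKT1. The counting interval of its log2 fold change therefore ran from 3.74 to 11.60 around 6.27. In HCC827 its level was 57.2 and 414 (2.85), and it rose in the fit (4.01 ± 0.74 SE, limma, adjusted p = 0.0338).

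The guanylate-binding proteins, which attack pathogen-containing vacuoles and viral assembly, are neighbours on chromosome 1. GBP2 read 238 and 1451 in A549 and 1296 and 3586 in HCC827 and rose (2.03 ± 0.33 SE, limma, adjusted p = 0.0262). GBP1 read 63.7 and 589.7 in A549 and 674 and 1155 in HCC827, with log2 fold changes of 3.21 and 0.78. GBP3 differed from both. Its A549 levels were 224 and 2257 (log2 fold change 3.33, interval 3.14 to 3.52) and its HCC827 levels 2992 and 2217 (-0.43, interval -0.51 to -0.35). In CPM, which scales reads to the depth of the library, the log2 ratio of HCC827 to A549 was 4.17 between the vector libraries and 0.46 between the myr-AKT1 libraries.

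The membrane effectors included the widest contrasts between the lines. IFITM1, IFITM2 and IFITM3 block the fusion of virus and cell membranes and lie together on chromosome 11. IFITM1 read 9.61 and 421 normalized counts in A549 and 125 and 1487 in HCC827, or 43.9 and 11.9 times as high with myr-AKT1, and rose (4.44 ± 0.53 SE, limma, adjusted p = 0.00959). IFITM3 read 30.6 and 295 in A549 and 1040.3 and 2686 in HCC827 and rose as well (2.3 ± 0.47 SE, limma, adjusted p = 0.0463). IFITM2 had the reverse distribution, being high in A549 (589 and 2257) and nearly silent in HCC827-vector, where it had 3 reads (2.38 normalized counts) against 42 (52.8) in HCC827-myr-AKT1. Its log2 fold changes were 1.94 in A549 and 4.47 in HCC827, the latter with an interval of 2.82 to 6.80, and it rose in the fit (limma, adjusted p = 0.044). These genes are close relatives, and reads that they share could have been assigned to another of them or discarded, so their separate levels are uncertain.

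BST2, or tetherin, which holds budding virions at the cell surface, had 1 read (0.873 normalized counts) in A549-vector and 77 (88.2) in A549-myr-AKT1. This gave a log2 fold change of 6.66 with an interval of 4.14 to 11.98. In HCC827 it was already abundant, with 1589 and 2553 normalized counts and a log2 fold change of 0.68. PLSCR1, a phospholipid scramblase, was abundant in all libraries, with 2076 and 2471 in A549 and 2069 and 3339.5 in HCC827 (0.25 and 0.69).

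ISG15 is a ubiquitin-like protein, and its conjugation machinery differed unevenly. ISG15 itself read 38.4 and 420.3 normalized counts in A549 and 720.0 and 1273 in HCC827, so the log2 fold change was 3.45 in the first and 0.82 in the second (limma, adjusted p = 0.105). UBE2L6, its conjugating enzyme, rose, with 410.4 and 1224 in A549, 849 and 2023 in HCC827 and a fitted value of 1.41 ± 0.27 (SE; limma, adjusted p = 0.0403). HERC5, its main ligase, read 506 and 457 in A549, where the interval held 0 (-0.34 to 0.04), and 119 and 210.1 in HCC827 (0.82). HERC6, the relative next to it on chromosome 4, read 243 and 361 in A549 and 315 and 453 in HCC827, with log2 fold changes of 0.57 and 0.53. USP18, the protease that removes ISG15 and also dampens the receptor, had similar differences in both lines, with 233 and 341 and 207 and 325 (0.55 and 0.65). The feedback gene of the list thus stayed under the threshold of 1 in both.

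PARP9 and DTX3L, which act as a complex in ADP-ribosylation and ubiquitination, and PARP14, a mono-ADP-ribosyltransferase, are neighbours on chromosome 3. They were higher in A549-myr-AKT1, with 431 and 1584 normalized counts for PARP9, 939 and 2129 for DTX3L and 3196 and 6964 for PARP14 (log2 fold changes 1.88, 1.18 and 1.12). In HCC827 PARP9 read 3241 and 3677, DTX3L 4948 and 5002 and PARP14 6498 and 8855, and their log2 fold changes were 0.18, 0.02 and 0.45. The annotated spans of PARP9 and DTX3L overlap by 240 bases on opposite strands, and the strand setting of the counting is not given in the sources used here.

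RSAD2 and CMPK2 stand out among the remaining effectors because both were past 2 in both lines. RSAD2 encodes viperin, which makes a nucleotide that ends viral RNA chains, and CMPK2, its neighbour on chromosome 2, encodes a mitochondrial nucleotide kinase. RSAD2 had 1 read in A549-vector and 50 in A549-myr-AKT1, or 0.873 and 57.3 normalized counts, and read 7.95 and 229 in HCC827. Its log2 fold changes were 6.03 in A549 (interval 3.49 to 11.37) and 4.85 in HCC827. It had the largest fitted value of the list (4.82 ± 0.65 SE, limma, adjusted p = 0.0145). CMPK2 read 7.86 and 106 in A549 and 11.1 and 176 in HCC827, with log2 fold changes of 3.76 and 3.98 and a fitted value of 3.73 ± 0.61 (SE; limma, adjusted p = 0.0268). It was the only gene of the 7 past 2 in both lines whose HCC827 value was the larger. The annotated spans of the pair overlap by 1079 bases on opposite strands.

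IFI6 and IFI27 encode small hydrophobic membrane proteins. IFI6 read 82.1 and 658 normalized counts in A549 and 219 and 1165 in HCC827, which is 8.02 and 5.33 times as high with myr-AKT1 (limma, 2.70 ± 0.36 SE, adjusted p = 0.0136). IFI27 read 21.0 and 279 and 133 and 506, and it rose too (2.80 ± 0.55 SE, limma, adjusted p = 0.0405). IFI44 and IFI44L, paralogs that adjoin each other on chromosome 1, were low in A549-vector against HCC827-vector, with log2 ratios of HCC827 to A549 in CPM of 8.39 and 8.04. IFI44 read 5.24 and 222 in A549, 42.4 times as high with myr-AKT1, but 1299 and 1408 in HCC827 (log2 fold change 0.12). IFI44L read 9.61 and 244 in A549 and 1874 and 2781 in HCC827 (log2 fold changes 4.67 and 0.57). EPSTI1 showed the same arrangement, with 3.49 and 33.2 in A549 and 219 and 307 in HCC827 (3.25 and 0.49).

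XAF1, which binds the apoptosis inhibitor XIAP, had 0 reads in A549-vector and 107 (123 normalized counts) in A549-myr-AKT1. Against a floor of 3 reads in the vector library it was 46.8-fold higher, and the counting interval of its log2 fold change began at 5.22. In HCC827 it read 257 and 825 normalized counts (log2 fold change 1.69). SAMD9 and SAMD9L, neighbours on chromosome 7 that restrict poxviruses and slow translation, differed in opposite directions in the lines. SAMD9 read 331 and 1052 in A549 (log2 fold change 1.67) and 4895 and 2459 in HCC827 (-0.99). SAMD9L read 109 and 554 in A549 (2.34) and 2218 and 1153 in HCC827 (-0.94), and these paralogs had the lowest HCC827 log2 fold changes of the list. ISG20, an RNA exonuclease, went the other way round, with 452 and 356 in A549 (-0.35) and 121 and 442 in HCC827 (1.87). IFI35, a leucine-zipper protein, differed similarly in both, with 349 and 561 in A549 and 246 and 403 in HCC827 (0.68 and 0.71).

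The chemokines CXCL10 and CXCL11, which attract T cells through CXCR3, were near the limit of detection. CXCL10 had 12 reads in A549-vector, 12 in A549-myr-AKT1, 0 in HCC827-vector and 10 in HCC827-myr-AKT1. Against a floor of 3 reads it was 5.28-fold higher in the last, and the counting interval of its log2 fold change there began at 1.83. CXCL11 had 0, 6, 1 and 10 reads in the same order. Its HCC827 log2 fold change of 3.98 rested on 1 vector read (interval 1.17 to 9.42), and CXCL11 was too low to enter the limma fit.

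**Figure D3:**
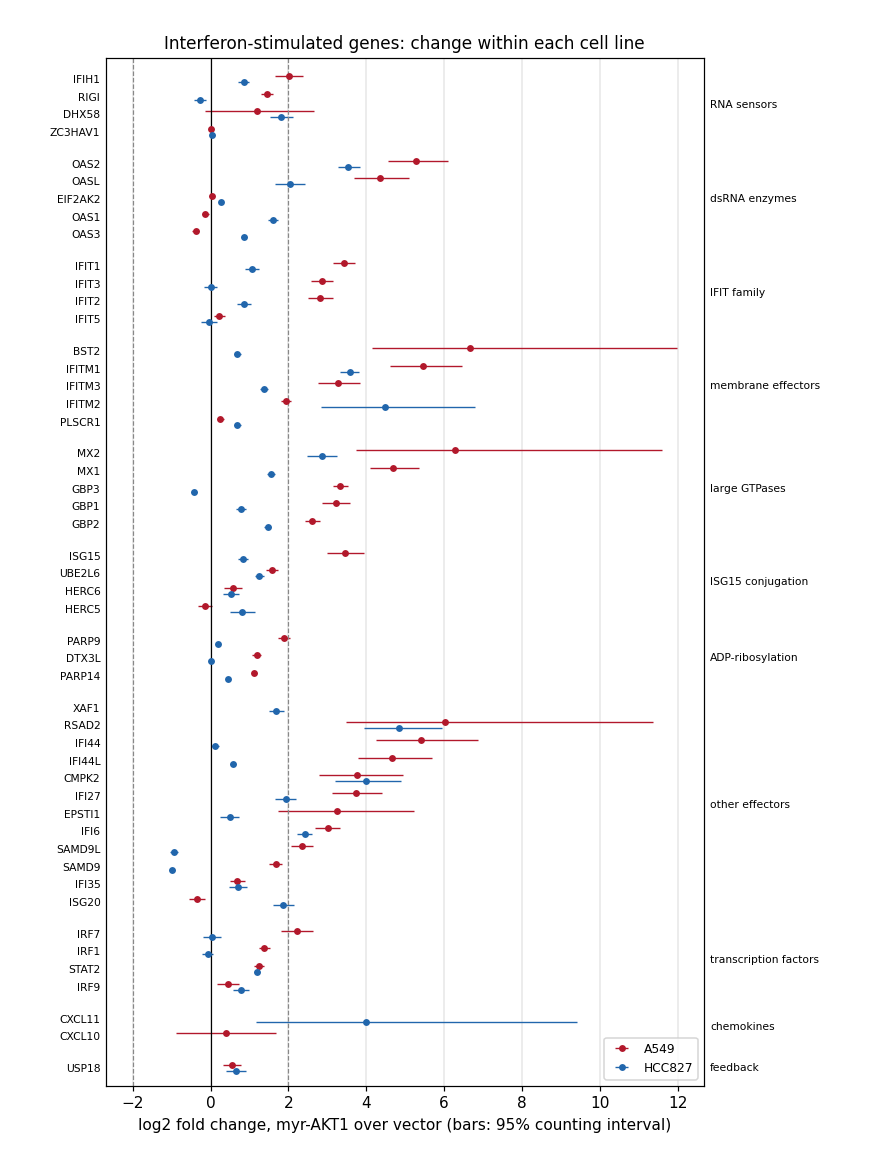
Log2 fold change of each gene, myr-AKT1 over vector, in A549 (red) and HCC827 (blue), grouped by family, with bars for the 95% counting interval and dashed lines at 2 and -2. Genes with 0 reads in a library have no point. All 5 large GTPases lie beyond 2 in A549 and 1 of them, MX2, in HCC827, and the long bars of MX2, BST2 and RSAD2 come from a single vector read.

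Counted by family, the 5 large GTPases had log2 fold changes with a median of 3.33 in A549 and 1.47 in HCC827, and the 5 membrane effectors 3.27 and 1.37. The 4 IFIT genes stood at 2.84 and 0.44, the 4 RNA sensors at 1.32 and 0.45, and the 4 genes of ISG15 conjugation at 1.07 and 0.82. The 3 ADP-ribosylation genes stood at 1.18 and 0.18, and the 4 transcription factors at 1.31 and 0.41. The 5 enzymes of the double-stranded RNA group were the exception, with a median of 0.02 in A549 and 1.60 in HCC827, since OAS1, OAS3 and EIF2AK2 differed little in A549.

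Neighbouring genes did not always share a direction. Within the GBP and OAS clusters a gene with a clear difference lay beside a gene with a smaller or opposite one. Of the 46, 7 genes had opposite signs in the lines with counting intervals clear of 0 in both, which is 15.2% of the 46 against 11.6% of all genes, so the share was near that of all genes. GBP3, RIGI, SAMD9 and SAMD9L were higher with myr-AKT1 in A549 and lower in HCC827, and ISG20, OAS1 and OAS3 were lower in A549 and higher in HCC827. The 7 kept these signs under each of the 3 other scalings of the libraries. Only the signs were rechecked and not the intervals. With size factors over all 4 libraries the A549 value of OAS1 was close to 0, at -0.04.

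The vector libraries themselves differed between the lines in these genes. In CPM, 33 of 46 genes with reads in both vector libraries were more than 2 times as high in HCC827-vector as in A549-vector (71.7%, against 20.6% of all genes), and 4 more than 2 times as high in A549-vector (20.3% of all genes), namely IFITM2, HERC5, ISG20 and OAS1. The median log2 ratio of HCC827-vector to A549-vector was 2.71, against 0.03 over all genes. The extremes were BST2, with a log2 ratio of 11.26, and IFITM2, with -7.52. Between the myr-AKT1 libraries, 28 of 49 were more than 2 times as high in HCC827 (57.1%, against 24.1% of all genes) and 1, IFITM2, in A549 (19.7% of all genes), and the median log2 ratio was 1.31. Each line is 1 culture, so these are differences between libraries and were not tested.

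Read per length, as RPKM, the reads per kilobase of exon scaled to the depth of the library, the order of the genes differed too. BST2 was the highest of the list in HCC827-vector (66.5) and HCC827-myr-AKT1 (113), where ISG15 was next with myr-AKT1 (71.5) and IFI6 followed (60.6). In A549-vector the highest was ZC3HAV1 (19.7), followed by EIF2AK2 (17.3) and PLSCR1 (16.4), genes with small differences. In A549-myr-AKT1 it was IFITM2 (48.7), with IFI6 next (24.4).

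The size of the log2 fold change went with the vector level in both lines. In A549, 16 genes had a CPM under 1 in vector cells, and 12 of the 14 with a fold were past 2, with a median of 4.68, while 14.3% of all genes at that level were past 2. Of the 15 genes with a CPM between 1 and 10, 12 were past 2 (4.87% of all genes). Of the 18 with 10 or more, none was, where few of all genes were either (1.36% between 10 and 50 and 0.414% above that). In HCC827, 4 of 4 at a CPM under 1 were past 2 (14.2% of all genes), 4 of 9 between 1 and 10 (3.56%), 1 of 20 between 10 and 50 (1.22%), and 0 of 15 above that (0.423%). The vector count enters both quantities, so the counts of listed genes are to be read against the all-gene shares at the same level. All 17 genes past 2 in A549 and not in HCC827 were more than 2 times as high in HCC827-vector as in A549-vector, and their median log2 fold change in HCC827 was 0.78. The A549-vector count enters both this selection and the comparison of the vector libraries. The share among all genes selected in the same way was not computed.

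**Figure D4:**
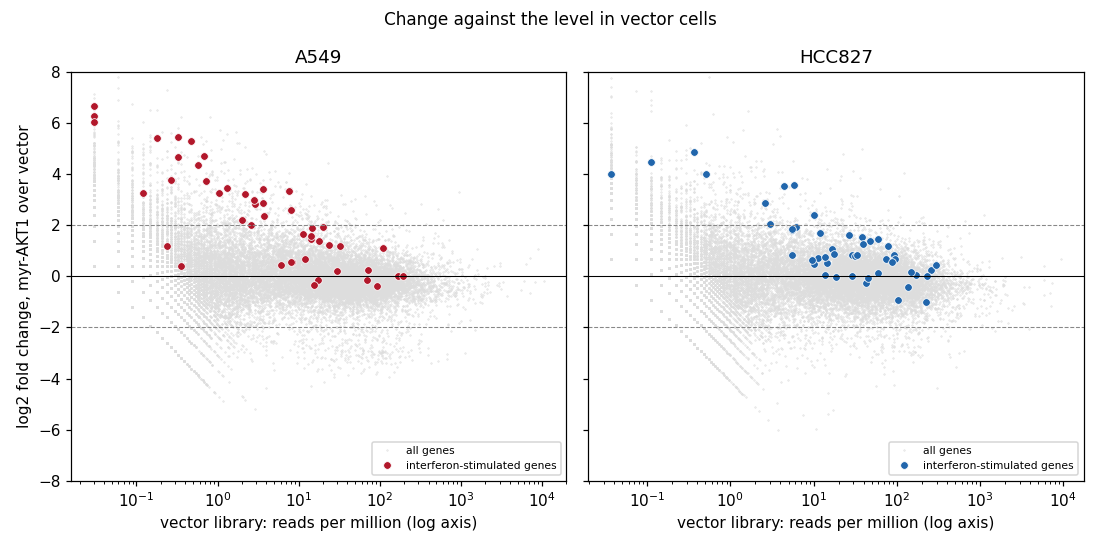
Log2 fold change (myr-AKT1 over vector) against the level in the vector library in CPM (log axis), with the listed genes in colour over all genes (grey) and dashed lines at 2 and -2. In A549 24 listed genes lie past 2, all at a CPM under 10 in the vector library, and in HCC827 9 lie past 2, 8 of them at a CPM under 10.

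Genes with and without an ISRE core in their promoter windows were set side by side as a description. The 27 with a core had medians of 3.0 in A549 and 0.73 in HCC827 on the log2 fold change scale. Of them, 16 were past 2 in A549 (6.89% of all genes). The 13 without a core had medians of 1.24 and 0.77, and 2 of the 11 with a fold were past 2 in A549. The 13 lack only the letters searched. A GAAA repeat with a single base between stands in windows of OAS1, RIGI, XAF1, CMPK2 and IFI35, which are among the 13. Cores were present in genes of each pattern, among them IFI6 and IFITM1 (past 2 in both lines), BST2 and ISG15 (past 2 in A549), GBP3 (opposite signs) and EIF2AK2 (log2 fold changes of 0.02 and 0.26).

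A list of 40 other interferon-stimulated genes had smaller medians. The median log2 fold change was 1.05 over 37 genes in A549, with 8 past 2 (6.89% of all genes) and 0 past -2 (3.62%). Over 40 genes in HCC827 it was 0.36, with 5 past 2 (6.13% of all genes) and 0 past -2 (3.87%). By limma, 6 of 39 tested rose (1.29% of all genes). TRIM22, a RING-finger antiviral protein, was past 2 in both lines, with 32.3 and 703 normalized counts in A549 and 19.9 and 875 in HCC827 (limma, 4.90 ± 0.48 SE, adjusted p = 0.00658). GBP4, from the same cluster as GBP1 to GBP3, read 6.11 and 104 in A549 and 1.59 and 35.2 in HCC827, the latter on 2 vector reads (log2 fold change 4.47, interval 2.48 to 7.59), and passed 2 in both (limma, 3.85 ± 0.66 SE, adjusted p = 0.0292).

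Upstream of these genes, ligands were scarce and receptors differed less. Of 9 interferon ligand genes, IFNB1 had 0, 1, 0 and 6 reads in the A549 vector and myr-AKT1 and the HCC827 vector and myr-AKT1 libraries, and IFNL1 had 0, 7, 0 and 0. IFNE, an epithelial interferon, was the only ligand with more than 10 reads, with 262 and 735 normalized counts in A549 and 61.2 and 28.9 in HCC827 (log2 fold changes 1.49 and -1.08). None of the 6 receptor genes or the 3 kinase genes was past 2 or -2 in either line or passed the limma test. Of the 9, 1, IFNGR1, was higher at an unadjusted p under 0.05 (18.4% of all genes in either direction). IFNAR1 and IFNAR2, the receptor of type I interferons, had log2 fold changes of 0.16 and 0.51 in A549 and -0.15 and 0.53 in HCC827. IFNLR1 and IL10RB, the receptor of the lambda interferons, had -0.29 and 0.34 in A549 and -1.07 and 0.75 in HCC827, and IFNGR2 had -0.17 and 0.79. The kinase genes JAK1, JAK2 and TYK2 had -0.27, 0.20 and -0.13 in A549 and 0.39, 0.37 and 0.05 in HCC827. Among the receptors, IFNGR1 had the highest log2 fold changes, 1.49 in A549 and 1.0 in HCC827 (limma, adjusted p = 0.0539). Of 5 other feedback genes none was past 2, and SOCS1, an inhibitor of JAK kinases, came nearest with 1.98 in HCC827 on 14 and 35 reads.

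Markers of other cell types were counted because immune and stromal cells carry many of the same transcripts. All 5 epithelial markers had reads in each library, and they differed between the libraries of a line. In A549 their log2 fold changes ran from -0.38 to 2.65, the highest that of KRT19. Counting intervals lay above 0 for 3 (27.2% of all genes) and below 0 for 2 (29% of all genes). In HCC827 they ran from -1.81 for KRT8 to 0.31, with -1.75 for KRT18, -0.75 for KRT19 and -0.22 for EPCAM. Intervals there lay below 0 for 4 of the 5 (29.2% of all genes). By limma none of the epithelial markers was called, with 1 higher and 2 lower at an unadjusted p under 0.05 (18.4% of all genes in either direction). The summed reads of 8 immune markers were 44 in A549-vector, 761 in A549-myr-AKT1, 27 in HCC827-vector and 82 in HCC827-myr-AKT1. In each A549 library 5 of the 8 were at 0. CD14 made up most of the reads, with 40, 685, 20 and 68 reads, and LYZ also differed, with 3, 69, 2 and 9. The leukocyte marker PTPRC had 1, 7, 5 and 0, and CD3E, CLEC4C and TYROBP had 0 in all 4. The 5 fibroblast markers summed to 128, 1014, 66 and 150 reads, and the 3 endothelial markers to 15, 120, 96 and 110. By limma, CD14 rose (3.40 ± 0.65 SE, adjusted p = 0.0378), 1 of the 2 immune markers tested. Of the 2 fibroblast markers tested 1 rose, and of the 2 endothelial markers 0 (1.29% of all genes). The immune, fibroblast and endothelial sums were higher in the myr-AKT1 libraries together with the antiviral genes. The part of these markers in the result, the epithelial ones included, was not tested.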

How the data were processed

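RNA of 4 cultures, the vector and myr-AKT1 cells of A549 and of HCC827, 1 library each, was sequenced with strand-specific libraries. The study's methods describe selection of polyadenylated RNA and the labels removal of ribosomal RNA, which bears on transcripts without a poly(A) tail. The authors mapped the reads with Bowtie2 to hg38 and counted them per Ensembl gene with HTSeq. The deposited signal is a count divided by 1 size factor per library, set within each cell line, although the methods name RPKM. The reads were recovered by dividing by the worth of 1 read (whole within 0.001), which gave 33530317 reads in vector and 25190760 in myr-AKT1 cells of A549, and 27312465 and 16322183 in those of HCC827.

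The listed genes and all other lists were chosen with earlier results of these data known. All 49 genes are named. Those with a normalized count of at least 20 in any library are given with their level in every library and the others with their reads, and of the other lists genes past 2 in A549 and HCC827 and with 20 or more reads per pair, the receptor and kinase genes. A gene that this rule also names is not reported here. Genes were named and their exon lengths taken from GENCODE release 44, in which 297 of 60558 identifiers had no match. Within a line, log2 ratios of deposited values were computed without a pseudocount over genes with reads in both libraries, and counted past 2 or -2, the threshold of the study's gene lists. A fold against 0 reads was computed against a floor of 3 reads. No p-value was computed within a line.

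Across the lines, limma 3.58.1 (trend) was run on log2(value + 1) with the cell line as a block, on genes kept by filterByExpr, with a threshold of 0.05 on the Benjamini-Hochberg adjusted p. The vector and myr-AKT1 libraries of a line share that line, which is the source of the pairing. The fit was also run on simulated counts in which both lines had the same change. That setting lacks the difference between the lines seen here, so it is no check of the calls. Alternatives were other scalings, pseudocounts, filters and thresholds, no block, edgeR 4.0.16 and DESeq2 1.42.0 on the recovered reads. R 4.3.3, Python 3.11.15, pandas 2.3.3 and scipy 1.17.1 were used. CPM and RPKM were computed from recovered reads and GENCODE exon lengths. Promoter windows were those of RefSeq on GRCh38.p14.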

Additional observations from a re-analysis of the deposited data

Results flagged for a closer look

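Among the 46 genes read in every library, 7 had opposite signs in the lines, each with counting intervals clear of 0 in both, and each line is 1 pair of libraries. Whether A549 and HCC827 differ in these was not tested, and no error beyond counting error is known. Higher with myr-AKT1 in A549 and lower in HCC827 were GBP3 (log2 fold changes 3.33 and -0.43), RIGI (1.44 and -0.27), SAMD9 (1.67 and -0.99) and SAMD9L (2.34 and -0.94). Lower in A549 and higher in HCC827 were ISG20 (-0.35 and 1.87), OAS1 (-0.14 and 1.60) and OAS3 (-0.39 and 0.85). The A549 value of OAS1 was -0.04 with size factors over all 4 libraries, and the intervals were not recomputed under other scalings. Among all genes 11.6% had opposite signs in this sense, against 15.2% of the 46.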

How the results depend on the processing

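The counts within a line depended little on the scaling. The number past 2 stayed between 20 and 25 in A549 and between 7 and 10 in HCC827 under 3 other scalings, a pseudocount of 1 and 2 filters, and the median stayed between 1.94 and 2.11 in A549 and between 0.80 and 0.90 in HCC827. At a threshold of 1 the numbers were 34 in A549 (18.2% of all genes) and 20 in HCC827 (17.5%). Size factors over all 4 libraries moved the median of all genes in A549 by 0.10, which is the shift against which single values under that scaling are to be read. The number of genes called across the lines depended strongly on the test, whose block is the cell line. Against 14 listed genes called higher by limma, the number was 18 with DESeq2, 7 with edgeR and TMM, 3 with edgeR and DESeq2 size factors, 9 with a pseudocount of 5, 4 with TMM scaling before limma, and 27 of 49 when all genes with at least 1 read were tested. With a pseudocount of 0.1 it was 0, with 24 at an unadjusted p under 0.05 (16.5% of all genes in either direction). Without the replicate block that pairs the libraries of a line it was also 0, with 7 at an unadjusted p under 0.05 (3.27% of all genes in either direction). All listed genes tested were fitted above 0 under each of these settings, and none was called lower. Over all genes the calls, higher and lower, were 250 and 335 by limma, 621 and 518 with DESeq2, 196 and 228 with edgeR and TMM, 42 and 57 with edgeR and DESeq2 size factors, 173 and 268 with a pseudocount of 5, 42 and 96 with TMM scaling, 1101 and 894 without the filter, and 0 and 0 with a pseudocount of 0.1 or without the block. IFI6, OAS2 and IFITM1 were called under 6 of the 8 alternatives, RSAD2 under 5, CMPK2, GBP2 and UBE2L6 under 4, MX2 and IFITM2 under 3, and MX1, IFI27, OASL, IFITM3 and STAT2 under 2. The cause of these differences was not tested. No called value of a listed gene changed sign. Leaving out a line leaves 1 library per condition and no residual degrees of freedom, so those values are the within-line values of the report and no such test was run. Depth limits CXCL10 and CXCL11, which had at most 12 reads in any library. It also limits the vector levels of MX2, BST2, RSAD2 and XAF1 in A549 and of IFITM2 in HCC827, which had 0 to 3 reads.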
